A study of Mus musculus with 8 samples.

Results

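The 9 genes Csf1r, Ly6c2, Nr4a1, Treml4, Fcgr4, C1qa, C1qb, C1qc and Fcrls, listed for monocytes and interstitial macrophages though not all confined to them, were followed in mouse lung after a bone marrow transplant. They were taken by symbol, and all 9 were found among the 23284 genes of the deposited table. Lung RNA came from 8 wild-type (WT) C57BL/6 recipients kept in hypoxia for 3 days. The marrow given to 4 of them was triply n/i/eNOS-/-, lacking the neuronal, inducible and endothelial nitric oxide synthases Nos1, Nos2 and Nos3, and these lungs are called N1 to N4 by replicate. The other 4 received WT marrow and are called W1 to W4. All recipients carried intact Nos genes in their own cells, and the labels give no age. The share of donor cells in a lung was not measured here, and macrophages of the host may remain.

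Monocytes leave the marrow as classical cells with much Ly6C on their surface, and some turn into nonclassical cells that patrol the vessel wall. The growth factor receptor CSF1R supports these cells and macrophages. Interstitial macrophages lie in the lung tissue around airways and vessels, apart from the alveolar macrophages of the air space, and are a source of C1q, the complex that starts the classical complement pathway.

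Of the 9 genes 1 changed between the marrow groups. Fcrls, a macrophage gene of the Fc receptor-like family, was 3.84-fold lower after NOS-null marrow. The other 8 did not pass, and they did not vary as one block. Ly6c2 and Fcgr4 were highest in N1, and the 3 C1q genes were highest in N2. Csf1r was high in both of these lungs, while Nr4a1 and Treml4 were highest in W3. The share of all 14008 tested genes with a Benjamini-Hochberg adjusted p under 0.05 in limma was 4.05%, with 1.87% higher and 2.18% lower after NOS-null marrow. The median log2 change of all tested genes was 0.00051, and 50.1% were positive, against 6 of the 9 genes and their median of 0.52. An unadjusted p under 0.05 was reached by 6 of the 9 genes and by 26.6% of all tested genes. Below, counts of lists in which none passed stand beside this share, and those of lists in which some passed beside the 4.05%. The measure thus follows each list's own outcome, and the lists were chosen with earlier results of these data known. The counts are therefore descriptions and not tests.

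Scaled reads are the authors' read counts after their own scaling between libraries, and a mean ± SD always covers the 4 lungs of a group. A log2 change is the NOS-null group minus the WT group for log2(scaled reads + 1), a scale on which changes of low genes look smaller, and SE is its standard error. FPKM, which also divides by gene length, serves where levels of different genes are compared. Library totals ran from 7767065 to 8625142 scaled reads. On the first principal component N1 and N2 lay at −57.7 and −32.3, N3 and N4 at −3.35 and −1.40, and the WT group between 17.7 and 27.2. Nos2 was at 29.5 ± 14.7 scaled reads in N lungs and 98.6 ± 13.1 in W lungs (log2 change −1.84, limma adjusted p = 0.0221, and 0.0530 to 0.0744 without N2 or any 1 W lung), and Nos3 at 194 ± 18.0 and 184 ± 15.8 (adjusted p = 0.701). The labels do not say how the lungs of a group relate, so p-values measure only the spread between these samples. In whole lung, fewer cells of a type and less RNA per cell cannot be told apart.

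All 9 genes were detected in all 8 libraries and passed the filter on low values, with about 15 reads for Fcrls and 25 for Treml4 in their lowest library. None of the 9 lies on a chromosome that carries a Nos gene. In GRCm38 coordinates (the assembly of mm10), C1qa (chromosome 4, 136895917 to 136898803), C1qc (136889804 to 136893065) and C1qb (136880129 to 136886187) sit side by side within 18675 bases. Fcgr4 (chromosome 1, 171018920 to 171029761) lies between Fcgr2b and Fcgr3, and Treml4 (chromosome 17, 48264295 to 48275360) lies near Trem2. Nr4a1 (101254269 to 101274795) and Ly6c2 (75108158 to 75111970) are on chromosome 15, and Fcrls (87250758 to 87263738) is on chromosome 3. Each value covers a whole gene, so no exon or isoform is told apart.

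Ly6c2 has a near-identical neighbour, and the start of both coding sequences is shown because their likeness decides how well reads of the pair can be separated. Ly6c1 lies 64.1 kb away (chromosome 15, 75044018 to 75048830) and is strongly expressed by lung endothelium. The first 150 coding bases are given 5′ to 3′ from the GENCODE transcripts of GRCm38, with the bases that differ between the genes in capitals.
Ly6c1: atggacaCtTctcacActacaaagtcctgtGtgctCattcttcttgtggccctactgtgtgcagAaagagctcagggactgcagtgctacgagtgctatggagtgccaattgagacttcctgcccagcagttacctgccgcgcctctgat
Ly6c2: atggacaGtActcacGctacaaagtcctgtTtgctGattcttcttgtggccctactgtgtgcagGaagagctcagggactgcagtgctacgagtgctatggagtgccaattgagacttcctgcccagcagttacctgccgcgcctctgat
Over all 396 coding bases 9 differed, and 6 of these lie in the stretch shown. The longest stretch without a difference was 188 bases, longer than a read. Of the 748 windows of 75 bases (the read length) in the Ly6c2 transcript, 164 (21.9%) were identical to a window of Ly6c1. For the other 8 genes no such window was shared with another gene. Reads can thus be split or moved between Ly6c1 and Ly6c2, and values of Ly6c2 are uncertain.

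Promoters are shown for Ly6c2 and Fcgr4, which varied together, for Treml4, a nonclassical monocyte gene that did not follow Fcgr4, and for C1qb. Each is the 250 bases before the start site, 5′ to 3′ on the gene's strand, from RefSeq (GRCm38.p6), and capitals mark matches to the motifs searched.
Ly6c2 (chr15:75111972-75112221, minus strand): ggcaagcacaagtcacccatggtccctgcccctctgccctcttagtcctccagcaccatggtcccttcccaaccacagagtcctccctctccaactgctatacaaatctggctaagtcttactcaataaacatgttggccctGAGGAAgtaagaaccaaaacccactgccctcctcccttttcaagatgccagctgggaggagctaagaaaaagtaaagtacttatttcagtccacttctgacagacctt
Fcgr4 (chr1:171018676-171018925, plus strand): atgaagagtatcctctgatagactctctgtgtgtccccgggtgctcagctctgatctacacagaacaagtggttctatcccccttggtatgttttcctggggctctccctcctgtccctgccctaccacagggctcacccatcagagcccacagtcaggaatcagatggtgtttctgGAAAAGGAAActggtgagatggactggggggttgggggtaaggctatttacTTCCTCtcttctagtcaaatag
Treml4 (chr17:48264045-48264294, plus strand): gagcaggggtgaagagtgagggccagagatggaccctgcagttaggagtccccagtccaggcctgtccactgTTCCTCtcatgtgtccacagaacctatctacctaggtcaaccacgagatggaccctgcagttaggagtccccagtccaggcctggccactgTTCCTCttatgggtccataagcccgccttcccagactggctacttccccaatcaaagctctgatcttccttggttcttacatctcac
C1qb (chr4:136886201-136886450, minus strand): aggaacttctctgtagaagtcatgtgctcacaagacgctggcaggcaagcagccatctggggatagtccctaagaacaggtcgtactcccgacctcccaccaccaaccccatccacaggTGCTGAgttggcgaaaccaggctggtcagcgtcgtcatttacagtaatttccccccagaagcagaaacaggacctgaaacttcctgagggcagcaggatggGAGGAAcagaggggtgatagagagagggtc
The search covered 4 motifs on both strands in the 7 genes with an entry. The core GAGGAA of the myeloid factor PU.1 was found in 6 of the 7 (Ly6c2, Treml4, Fcgr4, C1qb, C1qc and Fcrls) and in 23.1% of all 27025 promoters. The MAF half-site TGCTGA was found in C1qb and Fcrls, and in 15.8% of all promoters. The interferon-stimulated response element, searched as GAAA, any 2 bases and GAAA, was found in Fcgr4 alone of the 7, and in 3.04% of all. TTCNNNGAA, the interferon gamma-activated site, was in none of the 7 and in 7.18% of all. These are matches of letters, and binding was not measured.

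By FPKM the order of levels in W lungs was C1qb (78.3 ± 12.1), C1qa (70.6 ± 11.0), C1qc (67.8 ± 10.9), Csf1r (28.2 ± 4.95), Ly6c2 (26.4 ± 4.21), Nr4a1 (13.6 ± 6.87), Fcgr4 (11.2 ± 2.59), Fcrls (9.28 ± 2.04) and Treml4 (3.15 ± 1.41). The ranges over the W lungs overlapped among the 3 C1q genes, among Csf1r, Ly6c2 and Nr4a1, and among Nr4a1, Fcgr4 and Fcrls. Within each W lung, C1qb was nevertheless above C1qa and C1qc, and Csf1r above Ly6c2. By group means in N lungs the C1q genes also stood at the top (103 to 125 FPKM). Fcrls, at 2.71 ± 1.60 FPKM, stood beside Treml4 (2.98 ± 0.567) at the bottom. Within N1, however, Ly6c2 (153 FPKM) was above all 3 C1q genes (68.8 to 88.7 FPKM).

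**Figure D1:**
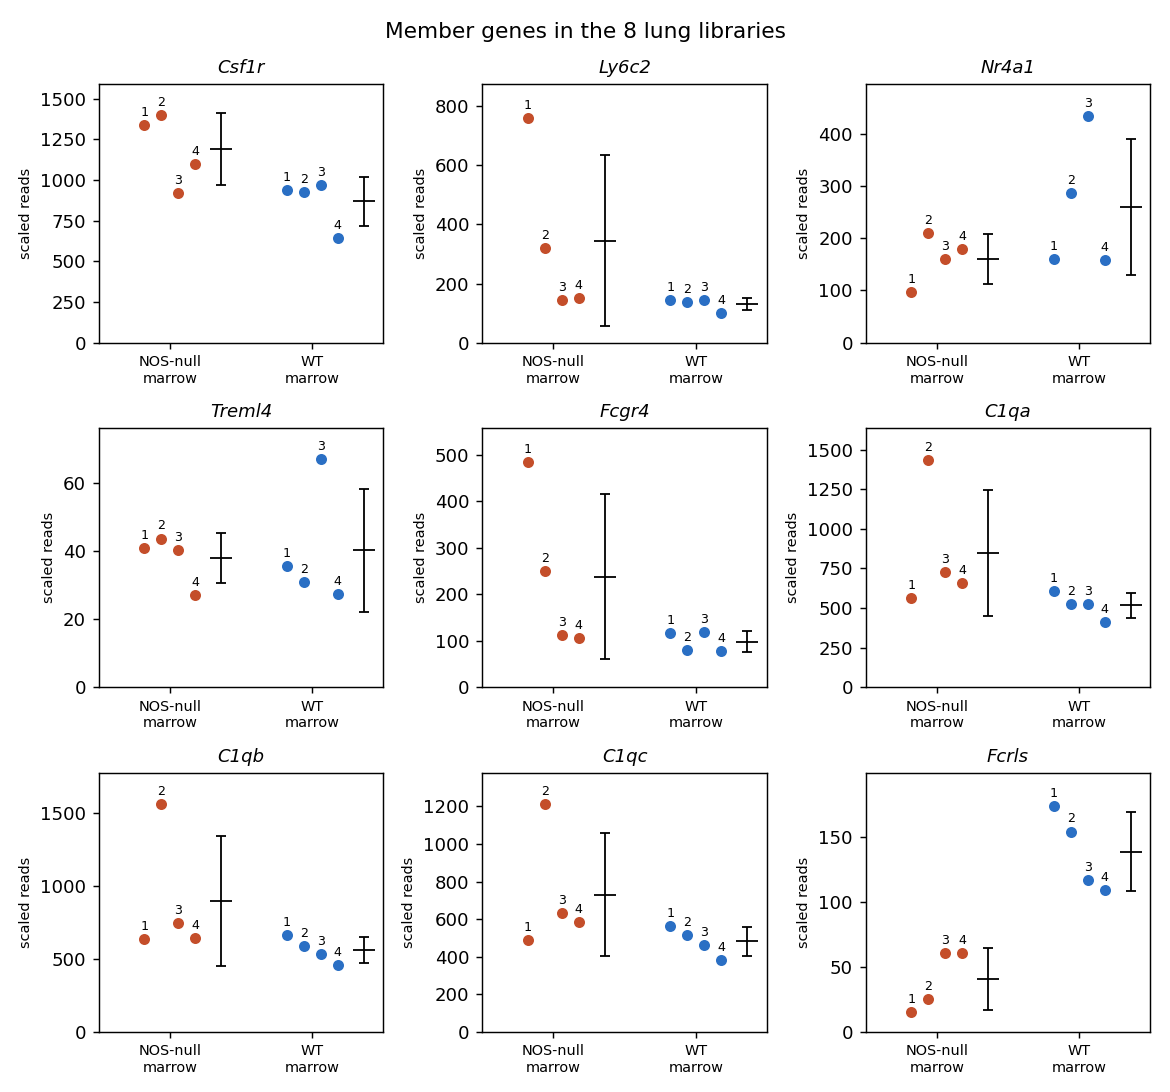
Scaled reads (y axis, from 0) of the 9 genes in the 4 NOS-null marrow and 4 WT marrow lungs; points are single lungs, and the bar is the mean with its SD. Fcrls lies at 15.4 to 61.1 after NOS-null marrow, below all WT marrow lungs (109.7 to 174), while the highest Ly6c2, Fcgr4 and C1q values are those of N1 and N2.

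Fcrls encodes a scavenger and Fc receptor-like protein of macrophages and microglia. It was at 15.4, 25.0, 61.1 and 60.9 scaled reads in N1 to N4, and at 174, 155, 117 and 109.7 in W1 to W4. The groups did not overlap, and all 4 N lungs were below the lowest W lung. Means were 40.6 ± 23.9 and 139 ± 30.5 (log2 change −1.94, SE 0.40, 95% interval −2.83 to −1.05, limma adjusted p = 0.0319). Groups failed to overlap for 2 of the 9 genes, Fcrls and Ly6c2, beside 17.1% of all tested genes. Without N1 and N2, the libraries farthest out on the first component, the Fcrls log2 change was −1.15 (limma adjusted p = 0.0182). Fcrls no longer passed without N2 (limma adjusted p = 0.0985) or with W1, W2, W3 or W4 left out (adjusted p = 0.111, 0.0830, 0.0748 and 0.0576), at log2 changes of −2.05 to −1.79. Set against C1qa in the same library, Fcrls was 11.0 to 14.4% of the C1qa FPKM in W lungs and 0.853 to 4.53% in N lungs.

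B cell markers moved with Fcrls. The summed FPKM of 5 B cell genes (Cd79a, Cd79b, Ms4a1, Cd22 and Fcer2a) was 9.49, 24.8, 77.1 and 76.8 in N1 to N4, against 108 to 207 in W lungs. All 5 had a negative log2 change (median −2.23) and none was at 0 in any library. None passed with limma (4 at an unadjusted p under 0.05, against 26.6% of all tested genes), and 4 of the 5 did not overlap between groups, against 17.1% of all tested genes. Cd79b passed without N1, N3 or N4 (limma adjusted p = 0.0476, 0.0357 and 0.0345), and Fcer2a without N3 or N4 (adjusted p = 0.0466 and 0.0334). The part of B cells in the Fcrls difference was not tested. Of 6 Fc receptor-like genes 3 were tested, and Fcrls fell while the other 2 did not pass. Among all tested genes 4.05% passed, with 2.18% lower. Fcrla, named here after its values were seen and known from B cells, was at 28.6 ± 26.3 against 122 ± 37.4 scaled reads (limma adjusted p = 0.0670), and passed without N3, without N4 or without N1 and N2 together (adjusted p = 0.0396, 0.0439 and 0.0462).

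The C1q chains A, B and C assemble into 1 molecule that binds antibody complexes and dying cells. C1qa was at 566, 1436, 725 and 659 scaled reads in N1 to N4 and at 609, 525, 523 and 413 in W1 to W4. N2 was far above the rest and N1 lay among the W lungs, so the groups overlapped. C1qb was at 636, 1562, 747 and 645 in N1 to N4 and at 664, 586, 535 and 458 in W1 to W4. C1qc was at 488, 1213, 634 and 585 in N1 to N4 and at 563, 515, 462 and 383 in W1 to W4. Both had the same order of N lungs at the top as C1qa, with N2 first and N3 next. None of the 3 passed with limma, at log2 changes of 0.62 (SE 0.25, adjusted p = 0.152), 0.58 (SE 0.26, adjusted p = 0.182) and 0.52 (SE 0.24, adjusted p = 0.203) for C1qa, C1qb and C1qc. Their 95% intervals were 0.064 to 1.18, 0.0096 to 1.15 and −0.02 to 1.07. Without N2 the log2 changes were 0.33, 0.28 and 0.25.

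The chains stayed in step. C1qa was 0.870 to 0.999 times C1qb by FPKM in the 8 libraries and C1qc 0.775 to 0.916 times, while the summed C1q FPKM ran from 174 to 585. Over the 8 libraries the log2 values of any pair of chains had a Pearson r of 0.99. Of 15 tested genes of the C1 complex and classical complement, 2 rose, 1 fell and 12 did not pass (median log2 change 0.52). Of all tested genes 4.05% passed. C4b, a complement C4 gene, rose from 905 ± 157 to 1726 ± 494 scaled reads (log2 change 0.90, limma adjusted p = 0.0305). Lrp1, a scavenger receptor gene, rose from 1201 ± 178 to 1708 ± 79.2 (log2 change 0.52, limma adjusted p = 0.0268). Calr, the gene of calreticulin, which binds C1q, fell from 5749 ± 254 to 4359 ± 257 (log2 change −0.40, limma adjusted p = 0.0245). Each of the 3 no longer passed when N2, W1, W2 or W3 was left out, with adjusted p-values from 0.0539 to 0.106, and C4b and Calr also when W4 was. Without N1 and N2 together Calr and Lrp1 did not pass (limma adjusted p = 0.0746 and 0.0801), nor with the replicate block (adjusted p = 0.0617 and 0.0580).

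**Figure D2:**
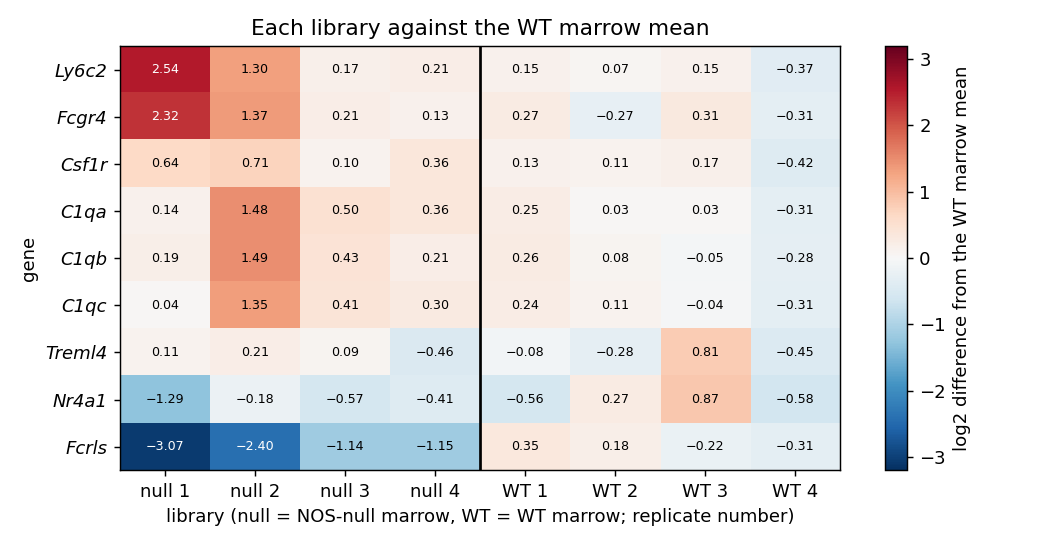
Log2 difference of each library (x axis) from the WT marrow mean for the 9 genes (y axis), on the scale of log2(scaled reads + 1); columns are N1 to N4 (null 1 to null 4) and W1 to W4 (WT 1 to WT 4), red is higher and blue lower. N1 carries the highest Ly6c2 (2.54) and Fcgr4 (2.32), N2 the highest C1q values (1.35 to 1.49), and Fcrls lies between −3.07 and −1.14 in the 4 N lungs.

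Ly6c2 encodes a Ly6C surface protein of classical monocytes that other leukocytes carry too. It was at 761, 322, 146 and 150.1 scaled reads in N1 to N4, against 144, 137, 144 and 100.2 in W1 to W4. The groups did not overlap, but N3 and N4 were only just above the highest W lung. The log2 change was 1.05 (SE 0.45, 95% interval 0.064 to 2.05, limma adjusted p = 0.167), and 0.19 without N1 and N2. Its neighbour Ly6c1 was at 12625, 8346, 6536 and 4839.98 in N1 to N4 and at 5112, 4512, 5005 and 5312 in W1 to W4 (log2 change 0.61, limma adjusted p = 0.138), and it passed without N4 (log2 change 0.83, adjusted p = 0.0384). Ly6c2 was 2.37 to 6.39% of the Ly6c1 FPKM in N lungs and 2.00 to 3.22% in W lungs, so these ranges overlapped. Ly6a, the stem cell antigen gene of the family, was at 9797 ± 2963 against 7316 ± 624 (limma adjusted p = 0.211), and none of 7 tested Ly6 genes passed (5 at an unadjusted p under 0.05, against 26.6% of all tested genes). With scaling by quantiles 1 of the 7 passed. Without N1, N3 or N4, 1, 2 and 3 passed, and without N1 and N2 together 1.

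None of 14 classical monocyte genes passed with limma (3 had an unadjusted p under 0.05, against 26.6% of all tested genes), with a median log2 change of 0.14. Lyz2, the lysozyme gene that alveolar type II cells also express, was at 36359.6 ± 3876 scaled reads in N lungs and 32412 ± 4477 in W lungs (limma adjusted p = 0.408). Hp, the haptoglobin gene, was at 9626 ± 965 and 10859 ± 1406 (limma adjusted p = 0.354).

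Fcgr4 encodes an activating Fc gamma receptor of nonclassical monocytes, macrophages and neutrophils. It was at 485, 249.9, 111 and 106 scaled reads in N1 to N4 and at 116, 79.6, 119 and 77.5 in W1 to W4. N1 and N2 were above every W lung, and N3 and N4 were among them. The log2 change was 1.01 (SE 0.43, 95% interval 0.059 to 1.96, limma adjusted p = 0.168), and 0.17 without N1 and N2. Over the 8 libraries Fcgr4 and Ly6c2 had a Pearson r of 0.98 in log2 values, and of 0.97 after the group means were taken off.

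Neutrophil markers moved with Fcgr4 and Ly6c2. The summed FPKM of 11 neutrophil genes was 43416, 4809, 2247 and 2707 in N1 to N4, against 913 to 2027 in W lungs. All 10 that were tested had a positive log2 change (median 2.02), and 1 of the 11, Camp, was at 0 in some library. None of the 10 passed with limma (8 at an unadjusted p under 0.05, against 26.6% of all tested genes), and 7 did not overlap between groups, against 17.1% of all. With libraries scaled by their totals 2 passed, and with scaling by quantiles 2. Without N1, N3 or N4, 2, 4 and 1 passed. S100a8, a calprotectin gene, was at 39729, 3246, 1428 and 1736 scaled reads in N1 to N4, against 859 ± 446 in W lungs (limma adjusted p = 0.124). In N1 most of the summed neutrophil FPKM came from S100a8 (25736 FPKM) and S100a9 (12719 FPKM). The part of neutrophils in the Fcgr4 and Ly6c2 values was not tested.

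**Figure D3:**
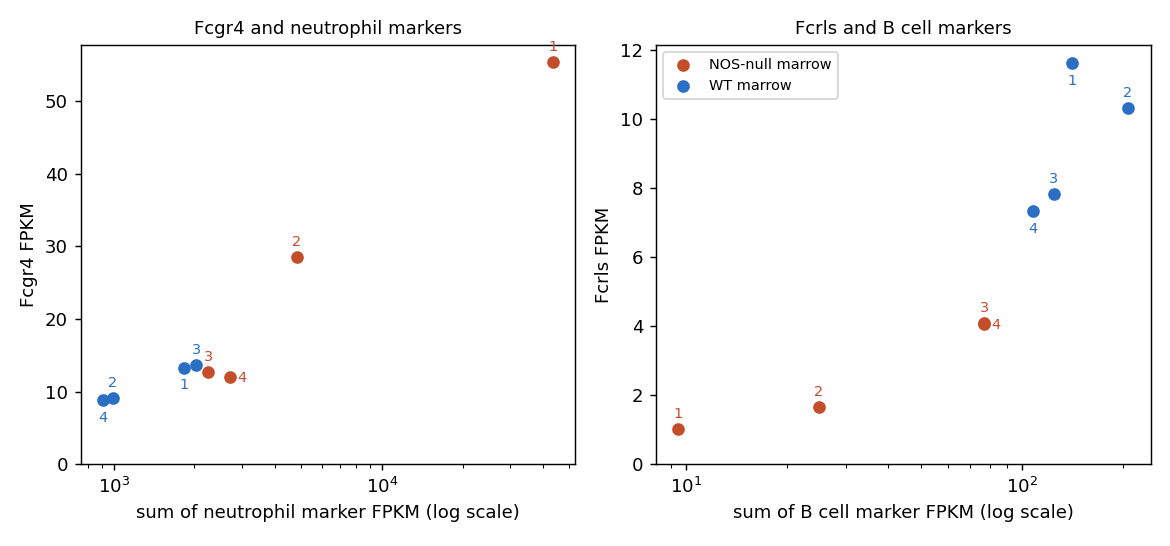
Left, Fcgr4 FPKM against the summed FPKM of neutrophil markers; right, Fcrls FPKM against that of B cell markers (x axes on a log scale), with 1 point per lung numbered by replicate, orange-red for NOS-null and blue for WT marrow. N1 is highest in neutrophil markers (43416, mostly S100a8 and S100a9) and Fcgr4, and lowest in B cell markers (9.49) and Fcrls.

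The other Fc gamma receptors were less uneven. Fcgr1, the high-affinity receptor gene, was at 92.0 ± 16.0 against 70.4 ± 23.8 scaled reads (limma adjusted p = 0.263), and the inhibitory Fcgr2b at 295 ± 70.6 against 273 ± 62.2 (adjusted p = 0.773). Fcgr3 was at 565 ± 272 against 403 ± 67.8 (limma adjusted p = 0.395), and the shared signalling chain gene Fcer1g at 368 ± 223 against 367 ± 73.8 (adjusted p = 0.796). None of 11 tested genes of this receptor system passed (2 at an unadjusted p under 0.05, against 26.6% of all tested genes), with a median log2 change of 0.38.

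Treml4, a receptor gene of nonclassical monocytes that amplifies Toll-like receptor signals, had the lowest FPKM of the 9 genes in W lungs. It was at 41.0, 43.7, 40.4 and 27.2 scaled reads in N1 to N4 and at 35.8, 30.9, 67.0 and 27.4 in W1 to W4. The groups overlapped, with a log2 change of −0.012 (SE 0.28, 95% interval −0.64 to 0.61, limma adjusted p = 0.983). None of 8 tested genes of the TREM family passed (4 at an unadjusted p under 0.05, against 26.6% of all tested genes). Trem2, a lipid receptor gene of macrophages, was at 104 ± 37.4 against 57.3 ± 14.7 scaled reads (log2 change 0.82, limma adjusted p = 0.0877). The adaptor genes Tyrobp, at 849 ± 618 against 532 ± 127, and Hcst, at 83.3 ± 52.9 against 36.8 ± 7.65, had limma adjusted p-values of 0.435 and 0.162.

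Nr4a1 encodes the nuclear receptor that nonclassical monocytes need, and is also an immediate early gene of many cell types. It was at 96.4, 209, 159.7 and 178 scaled reads in N1 to N4 and at 159.97, 287, 434 and 158 in W1 to W4. W2 and W3 were above all other lungs, and the rest overlapped (log2 change −0.61, SE 0.34, 95% interval −1.35 to 0.13, limma adjusted p = 0.267). Nr4a2, its close relative, was at 46.6 ± 17.6 against 53.0 ± 22.7 (limma adjusted p = 0.746), and Nr4a3 was below the filter at means of 2.57 and 0.961. Of 13 tested NR4A and immediate early genes, Egr1, a growth response factor gene, fell from 197 ± 28.9 to 119.8 ± 16.7 (log2 change −0.71, limma adjusted p = 0.0280), none rose and 12 did not pass. Among all tested genes 4.05% passed, with 2.18% lower. Egr1 no longer passed when N2 or any 1 W lung was left out (limma adjusted p = 0.0545 to 0.103), or without N1 and N2 together (adjusted p = 0.102).

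None of 16 nonclassical monocyte genes passed with limma (3 had an unadjusted p under 0.05, against 26.6% of all tested genes), with a median log2 change of 0.11. Ace, whose enzyme lung endothelium also makes, was at 8874 ± 2027 against 6977 ± 1116 scaled reads (limma adjusted p = 0.211), and the regulator gene Klf2 at 1466 ± 360.4 against 1618 ± 381 (adjusted p = 0.655).

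**Figure D4:**
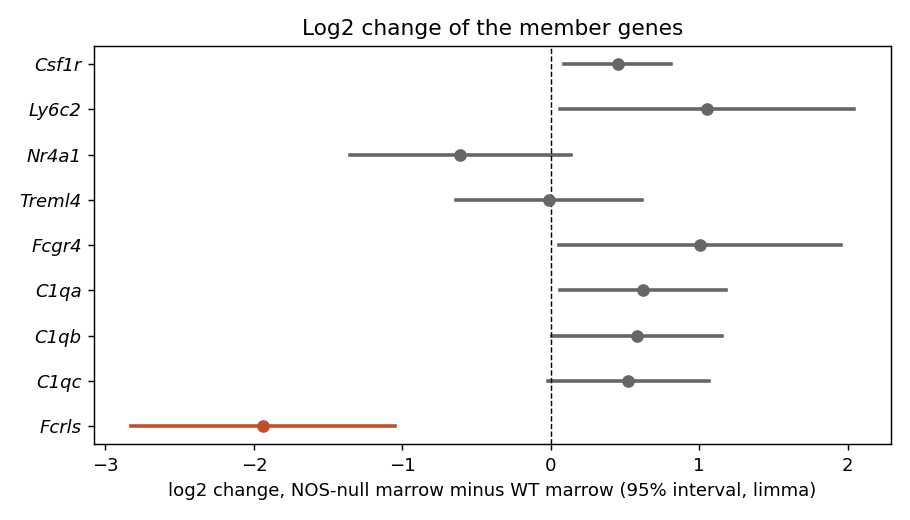
Log2 change of each of the 9 genes (x axis, NOS-null minus WT marrow) with its 95% interval from limma; orange-red marks an adjusted p under 0.05 and grey the rest. Fcrls (−1.94) is the 1 gene in orange-red, and the intervals of Nr4a1, Treml4 and C1qc include 0.

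Csf1r (GRCm38 chromosome 18, 61100598 to 61132149) encodes the receptor for the growth factors CSF1 and IL-34. It was at 1336, 1400.4, 921 and 1097 scaled reads in N1 to N4 and at 939.9, 926, 968 and 642 in W1 to W4. N1, N2 and N4 were above all W lungs, and N3 was among them. The log2 change was 0.45 (SE 0.16, 95% interval 0.092 to 0.81, limma adjusted p = 0.117), and 0.23 without N1 and N2. Of its ligand genes, Csf1 was at 395 ± 41.7 against 300.4 ± 48.5 (log2 change 0.40, limma adjusted p = 0.0888) and Il34 at 135 ± 27.5 against 119 ± 10.8 (adjusted p = 0.514). None of 18 tested genes of this pathway and of myeloid regulation passed (6 at an unadjusted p under 0.05, against 26.6% of all tested genes), and 16 of the 18 had a positive log2 change (median 0.28). Cebpb, a myeloid transcription factor gene, was at 1214 ± 221 against 1013 ± 245 (limma adjusted p = 0.323).

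Of the genes listed for interstitial macrophages, those other than Fcrls that passed were higher after NOS-null marrow. Of 23 tested, 3 rose, Fcrls fell and 19 did not pass (median log2 change 0.31, with 16 of the 23 positive). Of all tested genes 4.05% passed, 1.87% higher and 2.18% lower. Mertk, a receptor gene for the uptake of dying cells, rose from 213 ± 38.8 to 417 ± 127 scaled reads (log2 change 0.94, SE 0.20, limma adjusted p = 0.0332). Gas6, the gene of its ligand, rose from 1991 ± 159 to 2853 ± 387 (log2 change 0.51, limma adjusted p = 0.0332) and did not pass when libraries were scaled by their totals or by quantiles (adjusted p = 0.0544 and 0.0542) or without N3 (adjusted p = 0.0501). Lyve1, a hyaluronan receptor gene of a macrophage subset and of lymphatic vessels, rose from 1496 ± 222 to 2374 ± 516 (log2 change 0.65, limma adjusted p = 0.0415). Each of these 4 genes no longer passed when N2 or any 1 W lung was left out, and Mertk and Lyve1 also not without N1 and N2 together (limma adjusted p = 0.0775 and 0.0924) or with the replicate block (adjusted p = 0.0709 and 0.0646). Cd163 and Folr2, macrophage surface genes named here after their values were seen, were at 62.4 ± 28.5 against 111 ± 7.21 scaled reads (adjusted p = 0.0862, and 0.0451 without N1) and 40.1 ± 22.2 against 60.9 ± 10.5 (adjusted p = 0.205). By mean FPKM in W lungs, Gas6 (99.5) and Lyve1 (74.3) were above Csf1r (28.2), and Mertk (7.59) was below it. Which cells carried these transcripts was not measured.

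**Figure D5:**
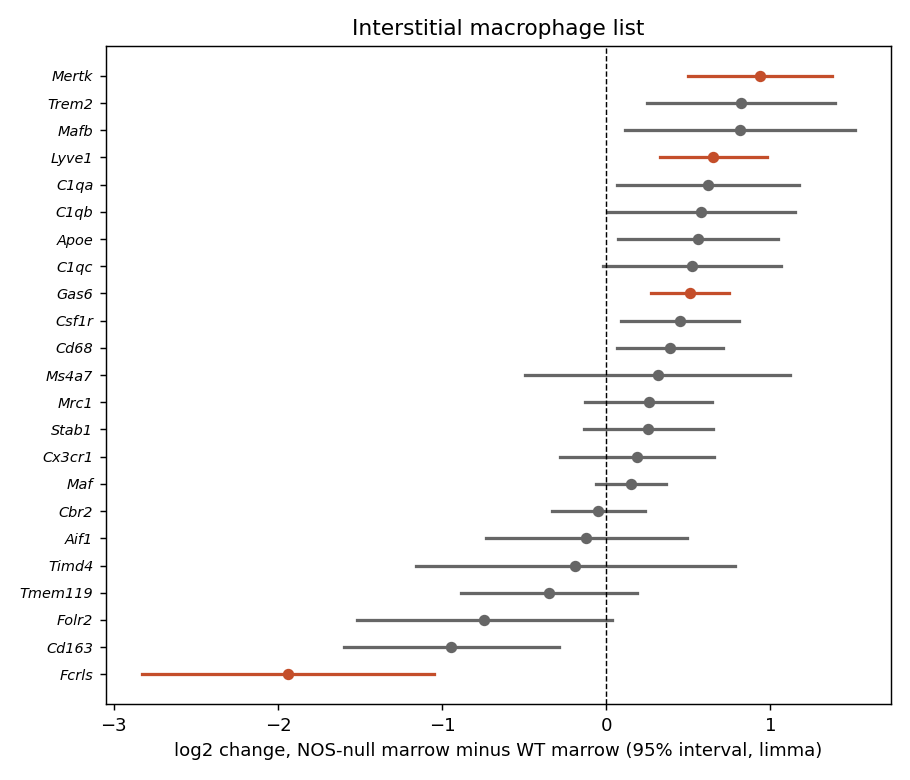
Log2 change (x axis, NOS-null minus WT marrow) of the 23 tested interstitial macrophage genes, ordered by size, with 95% intervals from limma; orange-red marks an adjusted p under 0.05. Mertk (0.94), Lyve1 (0.65) and Gas6 (0.51) lie above 0, and Fcrls (−1.94) is lowest.

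Markers of other cells were read beside these genes, and their counts beside the 4.05% of all tested genes that passed (1.87% higher and 2.18% lower). Of 14 alveolar macrophage genes tested, Ear2, a ribonuclease gene, rose from 317 ± 55.9 to 599.6 ± 111 scaled reads (limma adjusted p = 0.0186), and no longer passed without N2, W2 or W3 (adjusted p = 0.0609, 0.0603 and 0.0597) or without N1 and N2 together (0.0560). Siglec5, the symbol under which the list's sialic acid-binding lectin was found, fell from 125 ± 17.4 to 43.1 ± 7.91 (limma adjusted p = 0.00248). Cd209a, a lectin gene, was the 1 of 12 dendritic cell genes that passed and fell from 86.5 ± 16.2 to 17.5 ± 9.57 (limma adjusted p = 0.00947). None of 15 general macrophage and monocyte genes passed (6 at an unadjusted p under 0.05, against 26.6% of all tested genes). With scaling by quantiles 1 passed, without N3 3 and without N4 1. The median log2 change of the 15 genes was 0.37 and none was at 0 in any library. Their summed FPKM was 6395 to 8212 in N lungs and 5471 to 7287 in W lungs. Most of it came from Lyz2 (4764 to 5916 FPKM in N lungs and 4076 to 5456 in W lungs), which alveolar type II cells also express. Among 7 erythroid genes 5 rose, and the number that passed was 2 without N2, W1, W3 or N1 and N2 together, and 3 without N1, W2 or W4, with no filter, on the FPKM table, with robust variance estimates or with the replicate block. Among 4 NK cell genes 2 fell, and 0 passed without N2 or any 1 W lung or with the replicate block, and 1 without N3 or with no filter. Among 7 endothelial genes 1 fell, and among 6 T cell, 6 platelet and 6 epithelial genes none passed with limma (2, 2 and 1 at an unadjusted p under 0.05, against 26.6% of all tested genes). The part of these cells in the values of the 9 genes was not tested.

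Likeness of pattern is given as a description, as Pearson r of log2 values over the 8 libraries, which differ in group as well, against 12048 genes with a mean of at least 20 scaled reads. Fcrls was most like Armcx3 (r = 0.996) and Pea15a (r = 0.995), Ly6c2 most like Btg1 (r = 0.996) and Dazap2 (r = 0.995), and Fcgr4 most like Zfp654 and Rnf149 (both r = 0.995). Csf1r was most like Tlr8, an RNA sensor gene, and Glce (r = 0.979 and 0.973). Nr4a1 came closest to P2rx4 and Slc25a25 (r = 0.939 and 0.936), and Treml4 to Fam63b and Reg3g (r = 0.959 and 0.935). For each C1q chain the 2 genes most like it were the other 2 chains. Between the 9 genes r ran from −0.88 for Fcrls with Fcgr4 and with Ly6c2 to 0.99 among the C1q chains.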

How the data were processed

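Per the labels' protocols, bead-captured mRNA of whole lung was sequenced as 75-base single reads, and strand is not stated. Per the submitters' processing notes, TopHat2 2.0.13, Bowtie2 2.2.3, SAMtools 0.1.19 and Cufflinks 2.2.1 were used with mm10. The authors deposited a table of signal values, whose low values sit on a step per library as scaled read counts would, and a table of FPKM values. Of the positive signal values, 98.6 to 98.9% were whole multiples of that step (0.937 to 1.09) to within 0.05, yet 8 to 15 per library were smaller than it, so no count model was used. Groups follow the sample titles, because the design text gives both groups the same marrow.

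Log2(signal + 1) was tested with limma 3.58.1 (trend on, R 4.3.3) in the 14008 genes that reached 10 in 4 or more libraries, with Benjamini-Hochberg adjustment over all of them. Depth limits the precision of low genes such as Treml4 and Fcrls.

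The 9 genes and all lists were chosen with earlier results of these data known. Also named were close paralogs, ligands and adaptors, up to 4 genes that passed in a list or else its 2 of highest FPKM, and the genes most alike in pattern; not every gene so listed is printed, and 1 marker is not reported here. Alternatives changed the pseudocount, filter, scaling, variance model, table and libraries, or added a replicate block.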

Additional observations from a re-analysis of the deposited data

Results flagged for a closer look

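Of 124 groups of 4 lungs (62 genes that the text gives a value or a likeness for or lists as neutrophil or B cell markers, in both marrow groups), 17 had 1 lung set apart from the other 3 by Dixon's 95% criterion, which chance gives in about 1 in 20 groups. Among the 9 genes, W4 was low for Csf1r (642 scaled reads, others 926 to 968) and Ly6c2 (100.2, others 137 to 144), and N2 was high for C1qb (1562, others 636 to 747). N1 was high for Tyrobp (1766), Klf2 (2005), S100a8 (39729) and S100a9 (29866). N2 was high for Lyz2 (42138) and Lrp1 (1826), and N4 for Egr1 (145). W3 was high for Nr4a2 (86.7) and W4 for Lrp1 (1464), while W4 was low for Cd163 (100.2). W2 was high for Cd22 (242), N1 high for Camp (604) and low for Slc25a25 (189), and W3 high for Reg3g (2353).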

How the results depend on the processing

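With 1 lung left out at a time, the number of changed genes went from 567 to between 71 and 798, that among the 9 genes from 1 to between 0 and 1, and that over all lists from 19 to between 5 and 34. With a replicate block these numbers were 135, 0 and 10, and Fcrls had a limma adjusted p of 0.0667. The replicate numbers were not shown to pair the lungs, since deviations of same-numbered lungs correlated at r = 0.043, 0.17, −0.0027 and 0.15, and 2 of the 4 numbers matched best with themselves. Without N1 and N2 together 181 genes changed, and the mean log2 ratio of Ly6c2 to Ly6c1 differed between the groups by 0.012, against 0.45 with all lungs and 0.20 to 0.67 with any 1 left out. Under the alternatives that kept all 8 lungs and used no block, 424 to 751 genes changed and Fcrls passed. Each of the other 8 genes did not pass under any of its 19 alternatives. Some other lists in which none passed also changed. In the CSF1 receptor pathway list and the Fc gamma receptor list 1 gene passed without N3. For classical monocytes 1 passed without N3 and 1 without N4. For platelets 3 passed without N1, and 1 without N1 and N2 together. The alternatives for lists and for genes other than the 9 were chosen after seeing the data.

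The log2 change turned direction for Treml4 without N4 (0.14) or W3 (0.26). For Nr4a2 it did so without N1 (0.069), without W3 (0.077, the other single lungs reaching down to −0.38) and without N1 and N2 (0.048). Fcer1g turned without N3 (0.087, and −0.51 without N1), and Fcgr2b without W4 (−0.040, and 0.28 without N3) and without N1 and N2 (−0.16). Fam63b turned without N4 (0.013) or W3 (0.032, and −0.060 without W2), and Reg3g without W4 (−0.0053, and 0.65 without W3). Without N1 and N2, Fcgr3 was at −0.11 and Tyrobp at −0.089. The cause of these shifts was not tested.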
